A study of Mus musculus with 6 samples.

Results

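Complement is a cascade of plasma and locally made proteins that tag surfaces and call in leukocytes. C1q, assembled from the chains encoded by C1qa, C1qb and C1qc, recognises antibody or damaged cells and starts the classical pathway; C3 is the central component that every pathway cleaves; factor B (Cfb) supplies the protease of the alternative pathway, and properdin (Cfp) stabilises it. The small fragments C3a and C5a signal through the receptors encoded by C3ar1 and C5ar1, which are known on myeloid cells, while tissue macrophages are a well-known source of C1q.

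These 8 genes, C1qa, C1qb, C1qc, C3, Cfb, Cfp, C3ar1 and C5ar1, were taken by symbol from 27933 gene symbols in 6 Drop-seq libraries, in which every captured messenger RNA carries a barcode and a unique molecular identifier (UMI). All 8 were found, each counted once. The libraries came from 4T1 tumours, a mouse mammary carcinoma line grown in Balb/c mice. In 3 libraries, labelled FVIO-MHT, the tumours had received ferrimagnetic vortex nanorings of iron oxide at 0.1 mg per cm3 and an alternating field of 365 kHz for 10 min, a mild magnetic hyperthermia; in the other 3 they had received PBS, and all were taken after 24 h. Every sample carries the same protocol text, which leaves it unstated if the PBS tumours were put in the field too. Separate mice are not named either, so a p-value here measures only how libraries vary, and that variation may be technical.

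A barcode was kept with 200 or more detected genes, which left 332, 1049 and 2325 barcodes in FVIO-MHT replicates 1, 2 and 3 and 1080, 1462 and 482 in PBS replicates 1, 2 and 3, with median depths between 400 and 834 UMIs. Barcodes were clustered without complement genes and named by markers, so that the place of a complement gene played no part in the naming. FVIO-MHT replicate 1 stood apart: 265 of its 332 barcodes (79.8%) were neutrophil-like, and the 8 tumour epithelial markers, Epcam and the keratins among them, had 0 UMIs in it. FVIO-MHT replicate 3 stood apart in another way, since 1157 of its 2325 barcodes fell in a cluster that carried haemoglobin genes beside Krt7 and was left unnamed. A total of 33 kept barcode sequences occurred in more than 1 library, and leaving them out took PBS replicate 2 from 1462 to 1429 barcodes and PBS replicate 3 from 482 to 449. A level is given as CPM, the UMIs of a gene over all UMIs of the library, or of a class within it, on the usual CPM scale. Values of a group stand in the order of its replicates 1, 2 and 3, and intervals cover counting error only.

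C1qa (chr4:136895917-136898803), C1qb (chr4:136880129-136886187) and C1qc (chr4:136889804-136893065) are neighbours on the minus strand within 18675 bases (GRCm38). C5ar1 lies at chr7:16246743-16259540, C3ar1 at chr6:122847138-122856161, Cfp at chrX:20925454-20931555, C3 at chr17:57203970-57228136 and Cfb at chr17:34856374-34862518, all on the minus strand and all protein-coding. Cfb overlaps Gm20547, a protein-coding model on the same strand, so counts at that locus are uncertain between them. RefSeq promoters (GRCm38.p6) were matched for 6 of the 8 genes. The 250 bases before the start site are shown for C1qb, C1qc, C5ar1 and C3, the members with a match to a motif searched. They read 5′ to 3′ on the gene's strand, and capitals mark matches to the motifs named after them.
C1qb promoter, chr4:136886201-136886450: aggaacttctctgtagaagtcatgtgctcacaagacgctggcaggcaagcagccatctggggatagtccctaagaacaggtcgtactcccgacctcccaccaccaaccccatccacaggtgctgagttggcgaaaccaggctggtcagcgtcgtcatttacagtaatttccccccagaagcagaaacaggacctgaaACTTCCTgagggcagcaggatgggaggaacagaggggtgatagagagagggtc
C1qc promoter, chr4:136892915-136893164: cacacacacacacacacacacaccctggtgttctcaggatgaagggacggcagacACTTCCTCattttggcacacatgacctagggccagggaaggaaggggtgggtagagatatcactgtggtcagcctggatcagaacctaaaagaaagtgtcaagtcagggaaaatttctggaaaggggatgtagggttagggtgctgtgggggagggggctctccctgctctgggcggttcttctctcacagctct
C5ar1 promoter, chr7:16259339-16259588: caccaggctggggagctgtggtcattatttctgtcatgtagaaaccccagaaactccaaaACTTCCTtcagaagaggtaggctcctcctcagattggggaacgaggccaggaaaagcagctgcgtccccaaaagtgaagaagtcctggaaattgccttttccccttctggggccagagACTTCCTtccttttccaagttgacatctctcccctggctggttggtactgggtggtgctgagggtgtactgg
C3 promoter, chr17:57228137-57228386: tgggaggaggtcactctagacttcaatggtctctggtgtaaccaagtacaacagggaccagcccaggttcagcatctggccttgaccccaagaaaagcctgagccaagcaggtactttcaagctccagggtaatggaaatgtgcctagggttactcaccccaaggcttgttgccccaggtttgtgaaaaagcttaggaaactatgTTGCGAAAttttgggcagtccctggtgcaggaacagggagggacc
Of the motifs searched on both strands, GAGGAAGT, the form bound by the myeloid factor PU.1, was found in 1 member, C1qc, where it begins 195 bases before the start site on the opposite strand. It stands in 2.44% of 32851 promoters of the same length. Its shorter core AGGAAGT, a search added after the sequences had been seen, lies inside that match and was also found 53 bases before the start in C1qb and 190 and 72 bases before it in C5ar1, against 7.69% of all promoters. Both C5ar1 matches lie inside the gene span given above, whose start is farther upstream than the RefSeq start site. TTGCNNAA, a C/EBP form, was found in C3 only, as TTGCGAAA 45 bases before the start, and in 9.56% of all promoters. The NF-kB site (0.356% of promoters) and the interferon response element (2.98%) were found in none of the 6. C3ar1 and Cfp, whose UMIs also lay mostly in macrophage/monocyte-like barcodes, had no match to any motif searched. A match describes these letters and nothing more.

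The classes that held each gene differed widely. Over the 6 libraries, macrophage/monocyte-like barcodes held 11.3% of all UMIs but 81.8% of those of C1qa, 85.7% of C1qb, 91.8% of C1qc, 83.1% of C3ar1 and 73.0% of Cfp. C5ar1 was split between neutrophil-like barcodes with 49.7% and macrophage/monocyte-like barcodes with 40.8%. Neutrophil-like barcodes held 5.82% of all UMIs. C3 was spread widely: tumour epithelial-like barcodes held 54.7% of its UMIs, somewhat under their 59.1% of all UMIs, and fibroblast-like barcodes 15%, against 3.98% of all UMIs. Cfb lay mostly in fibroblast-like (41.5%) and macrophage/monocyte-like (38.8%) barcodes.

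**Figure D1:**
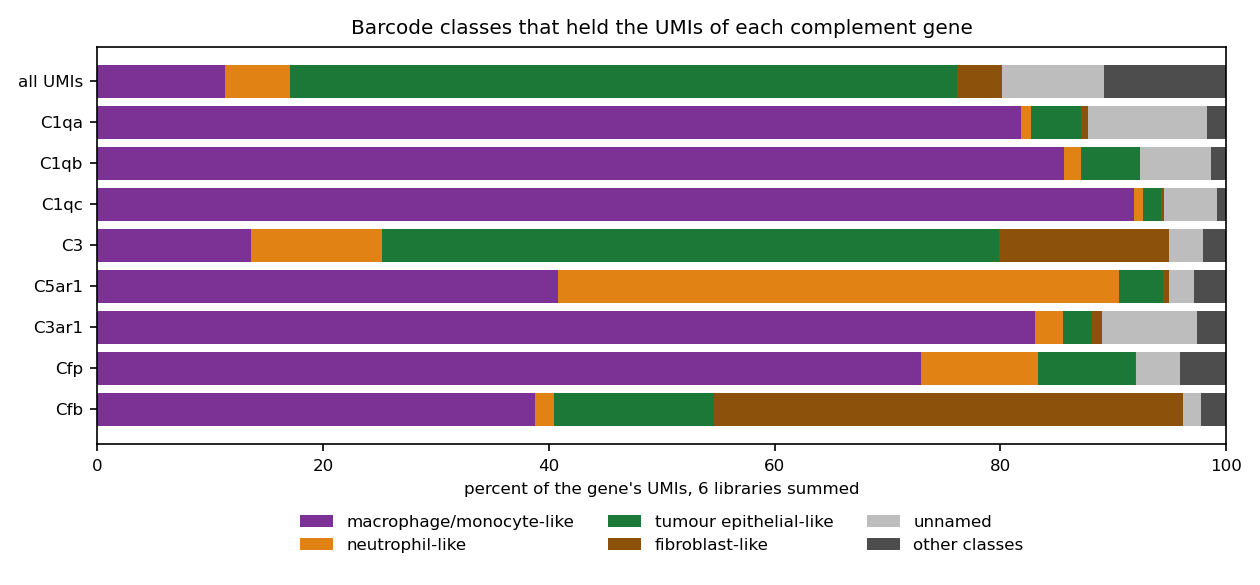
Share of each gene's UMIs (percent, 6 libraries summed) by barcode class, with the share of all UMIs on top for reference. The macrophage/monocyte-like class fills 81.8 to 91.8% of the C1q bars, while C3, Cfb and C5ar1 draw on several classes.

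The C1q chains followed each other closely. Over the 18 clusters, Pearson's r of log2(CPM + 10) was 0.92 between C1qa and C1qb, 0.95 between C1qa and C1qc and 0.94 between C1qb and C1qc, a description across clusters that share libraries. In macrophage/monocyte-like barcodes the summed level was 1354 CPM for C1qa, 579 CPM for C1qb and 861 CPM for C1qc. In neutrophil-like barcodes C1qa was at 28.5 CPM, and in tumour epithelial-like ones at 14.0 CPM. A C1qa UMI was seen in 32.4% of macrophage/monocyte-like barcodes (median depth 448 UMIs) and in 2.08% of tumour epithelial-like ones (median depth 1122), a class not known to make C1q. At 300 UMIs per barcode the shares were 23.4% and 0.721%, so the classes also differed at equal depth. By library the thinned share in macrophage/monocyte-like barcodes was 3.33, 14.3 and 32.3% with FVIO-MHT and 12.8, 32.0 and 12.5% with PBS, and the range within each group was wide. Any C1q chain was seen in 467 of 1129 macrophage/monocyte-like barcodes, of which 183 had 1 chain, 158 had 2 and 126 had all 3. In tumour epithelial-like barcodes 80 of 2306 had a chain, and 0 of them had all 3.

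Among 7479 genes, the 3 whose level over the clusters was most like C1qa were Aif1 (r = 0.93), Gatm (0.91) and Fcgr1 (0.90). Fcgr1 (0.95 with C1qb and with C1qc), Aif1 (0.92 and 0.94) and Ms4a4c (0.91 and 0.91) were nearest to the other chains. Fcgr1 encodes a high-affinity antibody receptor of macrophages. C3ar1 was nearest to Mrc1 (0.93), the mannose receptor, Ccl12 (0.91) and Hal (0.91), and Cfp to Cd68 (0.92), a lysosomal protein of macrophages, Clec4a2 (0.92) and Bcl2a1a (0.91). C5ar1 was nearest to Alox5ap (0.96), which serves leukotriene synthesis, the myeloid kinase gene Fgr (0.96) and Clec4d (0.95), and its r with C3ar1 was 0.55. The nearest genes lay farther off for C3 (Sgms2 0.84, P4ha1 0.82, Ap3s1 0.81) and for Cfb (Spon1 0.80, Slc17a5 0.77, Prg4 0.75). Aif1, Fcgr1, Mrc1 and Cd68 are also markers that named macrophage/monocyte-like clusters, and Clec4d is one for neutrophil-like ones.

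**Figure D2:**
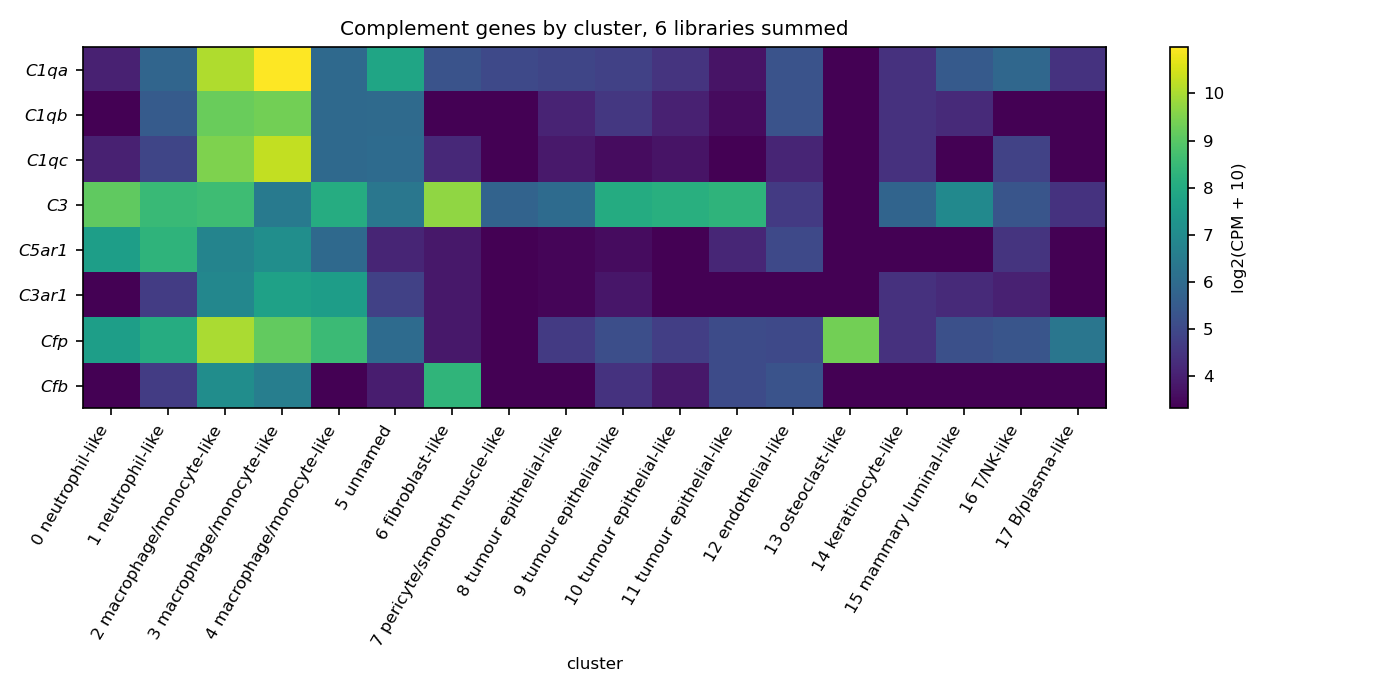
Level of the 8 genes, log2(CPM + 10), in each of 18 clusters with the 6 libraries summed. The C1q rows are brightest in macrophage/monocyte-like clusters 2 and 3 and dim in cluster 4, C5ar1 is brightest in neutrophil-like cluster 1, and Cfb in fibroblast-like cluster 6.

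The macrophage/monocyte-like class was made of 3 clusters, whose C1q levels lay far apart. Cluster 2, led by Ctss, Mmp12 and Arg1, carried C1qa at 1076 CPM; cluster 3, led by Pf4, Apoe and Ccl12, carried it at 2015 CPM; and cluster 4, led by Pf4 and Arg1, at 51.5 CPM, with 2 UMIs in 78 barcodes. C3 ran the other way between the larger pair, at 382 CPM in cluster 2 and 78.0 CPM in cluster 3. C3ar1 was at 108, 197 and 180.3 CPM in clusters 2, 3 and 4. The clusters were not shared evenly: 427 of the 445 macrophage/monocyte-like barcodes of FVIO-MHT replicate 3 were in cluster 3, 57 of the 64 of FVIO-MHT replicate 1 in cluster 4, and cluster 2 held most of FVIO-MHT replicate 2 and of every PBS library. A cluster and a library therefore cannot be told apart in those cases. Cluster 3 also carried tumour epithelial markers (Epcam, Krt8, Krt18, Krt7). Neutrophil markers were carried by cluster 2 (S100a8, Csf3r, Il1r2, Clec4d) and by cluster 4 (S100a8 and S100a9 among them). The part of these markers in the levels was not tested.

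The comparison of treated and PBS tumours was made first over all kept barcodes. It is a sum over cell types, in which fewer cells of a type and less RNA per cell cannot be told apart. edgeR's quasi-likelihood test with Benjamini-Hochberg adjustment called 0 of 8603 genes (0%), and 451 (5.24%) had an unadjusted p under 0.05; DESeq2 called 185 from the same counts. All 8 members passed the filter on low counts. Their log2 fold changes had a median of 0.54, against -0.04 over all genes tested, and 2 of the 8 had an unadjusted p under 0.05, both higher with FVIO-MHT (3.68% of all genes tested).

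C5ar1, the receptor of the chemoattractant C5a, was at 171, 103 and 17.7 CPM in the FVIO-MHT libraries. In the PBS libraries it was at 6.81, 7.0 and 10.6 CPM. Every FVIO-MHT library lay above every PBS library, which 3.17% of the genes tested did, but the FVIO-MHT libraries spread over a wide range and replicate 3 was close to PBS. The means were 97.3 ± 76.8 CPM (SD, n = 3) and 8.14 ± 2.15 CPM (SD, n = 3), a 12.0-fold difference resting on 155 and 24 UMIs. edgeR gave a log2 fold change of 3.96 ± 0.98 (SE; 95% interval 1.73 to 6.19) with an adjusted p of 0.878 (unadjusted 0.00319, rank 10 of 8603), and DESeq2 gave 4.12 with an adjusted p of 2.46e-04. Over the other alternatives run, the adjusted p lay between 0.103 and 1.00.

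Neutrophil markers were high in the same pair of libraries as C5ar1, but not in the others. Summed over the 10 neutrophil markers, the level was 89089, 14776 and 516 CPM in the FVIO-MHT libraries and 3031, 557 and 858 CPM in the PBS libraries. FVIO-MHT replicate 3 had the lowest marker sum of the 6 libraries, with C5ar1 at 17.7 CPM. PBS replicate 1 had the highest PBS marker sum, with C5ar1 at 6.81 CPM from 6 UMIs. The C5ar1 counting intervals of the PBS libraries overlap, so their order is uncertain. The part of neutrophil content in the C5ar1 level was not tested. Neutrophil-like barcodes held 90.3% of the C5ar1 UMIs of FVIO-MHT replicate 1 (79.3% of all its UMIs) and 61.3% of those of replicate 2 (18.8% of all its UMIs), but 0% in replicate 3, where macrophage/monocyte-like barcodes held 80.6%. With the neutrophil-like class left out, C5ar1 was at 79.8, 49.2 and 17.8 CPM in the FVIO-MHT libraries, the first of these from 3 UMIs, and at 3.52, 7.02 and 8.56 CPM in the PBS libraries. What was left of FVIO-MHT replicate 1 was macrophage/monocyte-like (19.1% of its UMIs) and fibroblast-like (1.69%) barcodes only. The other libraries stayed mixtures of many classes, so the first value is not of a like mixture. The groups still did not overlap, but the share of all genes that did so there was not counted. The log2 fold change was 2.43, with an adjusted p of 0.904 in edgeR. Without FVIO-MHT replicate 1 it was 2.89 (adjusted p 0.779 in edgeR). With no gene minimum, over all listed barcodes, C5ar1 was at 222, 154 and 26.7 CPM in the FVIO-MHT libraries and at 19.5, 9.52 and 25.1 CPM in the PBS libraries, so that the means were 7.44-fold apart in place of 12.0-fold and the lowest FVIO-MHT and highest PBS library nearly met.

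C3ar1, the receptor of C3a, was at 27.6, 41.1 and 25.8 CPM in the FVIO-MHT libraries. It was at 9.09, 9.69 and 10.6 CPM in the PBS libraries. The groups did not overlap, and 3.17% of the genes tested had every FVIO-MHT library above every PBS library. FVIO-MHT replicate 1 held only 5 UMIs, and its 95% Poisson interval, 8.96 to 64.4 CPM, covers every PBS value. The means were 31.5 ± 8.36 CPM and 9.80 ± 0.772 CPM (SD, n = 3 each), 3.21-fold apart, from 87 and 31 UMIs. The log2 fold change was 1.83 ± 0.47 (SE; 95% interval 0.76 to 2.91), with an adjusted p of 0.878 in edgeR (unadjusted 0.00394, rank 15 of 8603); DESeq2 gave no adjusted p for it, and it was not called under the other alternatives run, whose adjusted p lay between 0.169 and 1.00. In neutrophil-like barcodes C3ar1 had 3 UMIs in all. With that class left out, C3ar1 was at 133 (5 UMIs), 46.5 and 25.8 CPM in the FVIO-MHT libraries and at 9.38, 9.72 and 10.7 CPM in the PBS libraries. As for C5ar1, FVIO-MHT replicate 1 was then almost only macrophage/monocyte-like, unlike the other libraries. The means (68.4 ± 56.9 and 9.93 ± 0.687 CPM, SD, n = 3 each) were 6.89-fold apart. With no gene minimum they were 2.47-fold apart, with 17.0 CPM in the lowest FVIO-MHT and 16.2 CPM in the highest PBS library. Macrophage/monocyte-like barcodes held 77.8 to 100% of its UMIs in 5 of the 6 libraries, and made up 19.3, 21.3 and 19.1% of barcodes in the FVIO-MHT libraries and 9.26, 13.8 and 19.7% in the PBS libraries. The 14 macrophage/monocyte markers, summed over all kept barcodes, were at 2102, 2438 and 2933 CPM in the FVIO-MHT libraries and at 769, 1297 and 2086 CPM in the PBS libraries, without overlap as for C3ar1, and their part in its level was not tested.

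The other 6 members overlapped between the groups. C1qa was at 22.1, 125 and 343 CPM in the FVIO-MHT libraries and at 51.1, 172 and 95.6 CPM in the PBS libraries. FVIO-MHT values lay at both ends of the 6. FVIO-MHT replicate 1 held only 8 C1q UMIs in all, against 298 and 1036 in replicates 2 and 3. C1qb was at 68.8 ± 51.0 against 57.3 ± 26.7 CPM and C1qc at 90.4 ± 76.0 against 77.2 ± 14.1 CPM (SD, n = 3 each). In the order of the 6 libraries by C1qa, the lowest pair, FVIO-MHT replicate 1 (4 UMIs) and PBS replicate 1, had overlapping counting intervals, as did PBS replicate 3 and FVIO-MHT replicate 2. Without FVIO-MHT replicate 1, C1qb (97.6 ± 14.2 CPM, SD, n = 2) and C1qc (130.1 ± 45.9 CPM, SD, n = 2) lay above all PBS libraries. The share of all genes that did so with that library left out was not counted, so no weight is put on this.

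C3, the central component, was at 563, 303 and 50.9 CPM in the FVIO-MHT libraries and at 288, 236 and 369.5 CPM in the PBS libraries. The treated libraries lay both above and below the PBS range, and replicate 3 was lowest of all. Neutrophil-like barcodes held 82.4% of C3 and 79.3% of all UMIs in FVIO-MHT replicate 1. Tumour epithelial-like barcodes held 79.1% and 85.2% of C3 in PBS replicates 1 and 2, where they held 64.9% and 83.2% of all UMIs. Without FVIO-MHT replicate 1, the log2 fold change of C3 turned from 0.52 to -0.77. Cfp, properdin, was at 166 ± 59.5 against 140.3 ± 45.4 CPM (SD, n = 3 each). Cfb was at 32.2 ± 31.2 against 41.8 ± 55.8 CPM (SD, n = 3 each), and PBS replicate 3 alone, at 106 CPM, set the PBS mean: without it the log2 fold change turned from -0.07 to 1.87 (adjusted p 1.000 in edgeR).

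**Figure D3:**
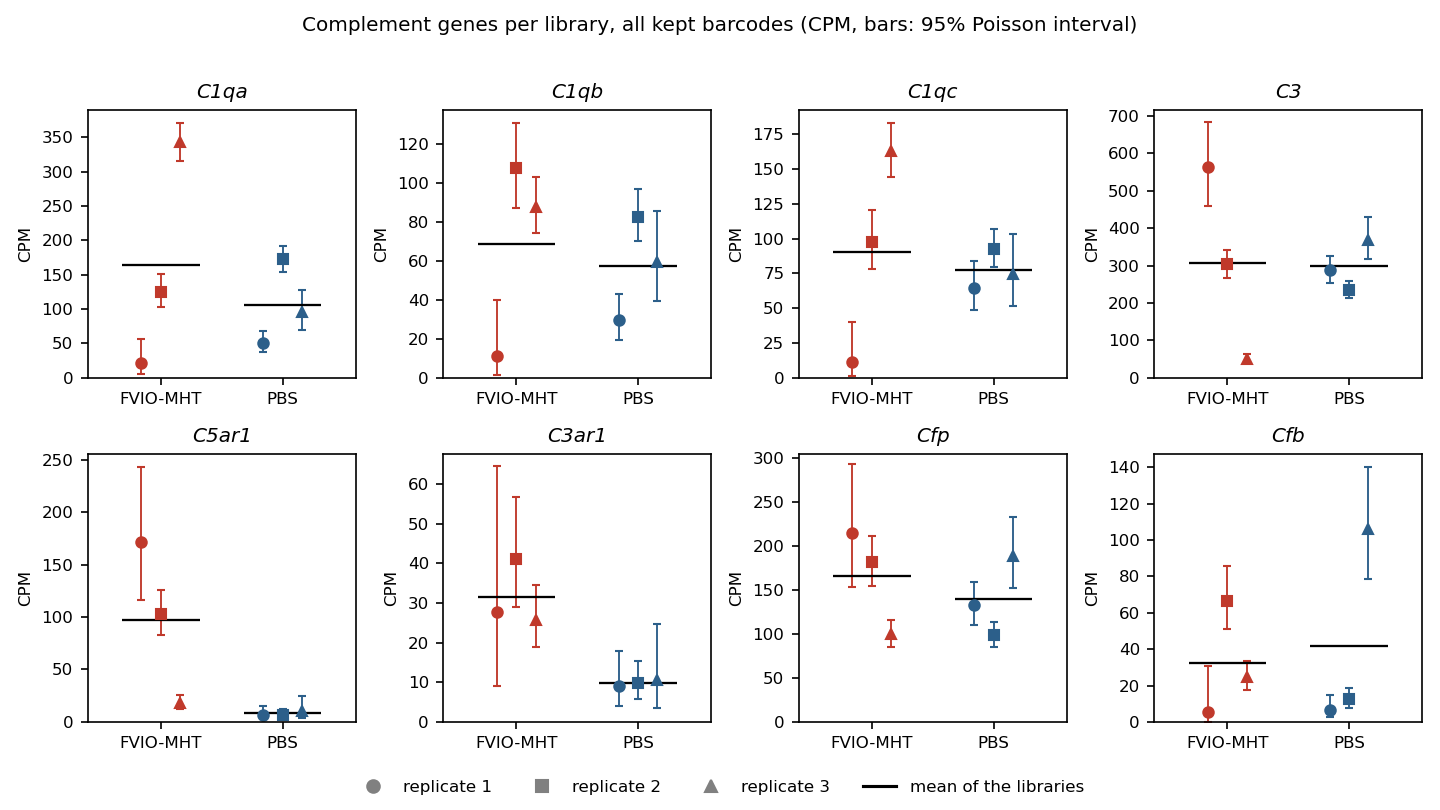
CPM of each gene in the 6 libraries over all kept barcodes; symbols mark the replicates, bars the 95% Poisson interval and lines the mean of 3 libraries. For C5ar1 and C3ar1 every FVIO-MHT point lies above every PBS point, and for the other 6 genes the groups overlap.

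Within macrophage/monocyte-like barcodes, the cells the study's title is about, the clusters differed by library as given above. The class had 64, 223 and 445 barcodes in the FVIO-MHT libraries and 100, 202 and 95 in the PBS libraries. Its 14 markers summed to between 8919 and 17791 CPM in each. At Leiden resolution 2, a cluster of 80 barcodes, 58 of them from FVIO-MHT replicate 1, carried macrophage/monocyte and neutrophil markers together and was left unnamed. The class then kept 6 barcodes of that library, so the naming of most of its barcodes depends on the clustering. edgeR called 0 of 2110 genes (0%), 87 (4.12%) had an unadjusted p under 0.05, and DESeq2 called 2. Of the 8 members 7 passed the filter; their median log2 fold change was -0.23, against -0.00 over all genes tested.

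Cfp was the member with the clearest separation in this class, and it was lower. It was at 347, 731 and 570.0 CPM in the FVIO-MHT libraries. In the PBS libraries it was at 1529, 956 and 1166 CPM. All treated libraries lay below all PBS libraries, which 6.40% of the genes tested did, and 2.13% were lower at an unadjusted p under 0.05. The means were 549.5 ± 193 and 1217 ± 290.2 CPM (SD, n = 3 each), a ratio of 0.451. Its log2 fold change was -1.07 ± 0.42 (SE; 95% interval -1.99 to -0.14), with an adjusted p of 0.980 in edgeR (unadjusted 0.0271), and it lay between -1.25 and -0.89 over all alternatives run. It was nearest to 0 without PBS replicate 1 or FVIO-MHT replicate 1, at -0.89 each. With the libraries summed, Cfp was at 1030, 558 and 361 CPM in clusters 2, 3 and 4, the last from 14 UMIs. FVIO-MHT replicate 3 lay mostly in cluster 3, FVIO-MHT replicate 1 mostly in cluster 4, and every PBS library mostly in cluster 2. The part of the clusters in the Cfp difference was not tested. Within cluster 2 alone, Cfp was at 781 CPM in FVIO-MHT replicate 2 and at 1732, 979 and 1137 CPM in the PBS libraries, and the 17 barcodes of FVIO-MHT replicate 3 in that cluster gave 1062 CPM from 10 UMIs, inside the PBS range.

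Both anaphylatoxin receptors lay above PBS in this class as well. C3ar1 was at 145, 222 and 157 CPM in the FVIO-MHT libraries and at 137, 103 and 43.2 CPM in the PBS libraries. The lowest treated and the highest PBS library almost touched, and the values rest on 71 and 27 UMIs. With the libraries summed, C3ar1 was also higher in clusters 3 and 4 than in cluster 2, as given above. The part of the clusters in this difference was not tested. The log2 fold change was 0.95 ± 0.49 (SE; 95% interval -0.13 to 2.02), with an adjusted p of 0.980 in edgeR (unadjusted 0.0794), and 3.70% of the genes tested had every FVIO-MHT library above every PBS library. C5ar1 was at 86.9, 186 and 112 CPM in the FVIO-MHT libraries and at 51.6, 77.0 and 57.6 CPM in the PBS libraries. Again no library overlapped, but the values rest on 54 and 19 UMIs and the counting intervals of single libraries did.

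C5ar1 was too low to pass the filter in this class, so it was tested alone: the mean difference on log2(CPM + 10) was 0.89, with an exact two-sided permutation p of 0.100, the smallest that 3 against 3 libraries allow. With no filter, edgeR gave a log2 fold change of 1.06 with an adjusted p of 0.867. Neutrophil markers within the class summed to 6862, 3785 and 920.1 CPM in the FVIO-MHT libraries and to 3007, 366 and 1282 CPM in the PBS libraries; their part in the C5ar1 level was not tested. In cluster 2 alone C5ar1 was at 183 CPM in FVIO-MHT replicate 2 and at 42.2, 74.8 and 45.5 CPM in the PBS libraries, while the 17 barcodes of FVIO-MHT replicate 3 held 0 UMIs, which allows up to 319 CPM. Cluster 2 also carried neutrophil markers, Clec4d among them, whose part in its C5ar1 level was not tested. A C5ar1 and a C3ar1 UMI met in 7 macrophage/monocyte-like barcodes, of 67 with C5ar1 and 82 with C3ar1.

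The C1q chains did not separate the groups in macrophage/monocyte-like barcodes. C1qa was at 116, 645 and 2047 CPM in the FVIO-MHT libraries and at 756, 1828 and 605 CPM in the PBS libraries. The order from low to high mixed the groups, and the treated libraries were at both ends. The log2 fold changes were -0.12 ± 0.76 for C1qa, -0.39 ± 0.61 for C1qb and -0.43 ± 0.73 for C1qc (SE). Their 95% intervals ran from -1.79 to 1.56, -1.73 to 0.95 and -2.04 to 1.17. These leave room for changes of over 2-fold either way for C1qa and C1qc. Each log2 fold change turned sign without FVIO-MHT replicate 1, to 0.36, 0.01 and 0.04. Tumour epithelial markers within the class summed to 0, 165 and 1266 CPM in the FVIO-MHT libraries and to 155, 738 and 446 CPM in the PBS libraries, highest in the same pair of libraries as C1qa, and their part in the C1q levels was not tested. The mix of chains varied between libraries: over all barcodes, C1qa made up 50% (of 8 UMIs), 37.9 and 57.8% of all C1q UMIs with FVIO-MHT and 35.2, 49.5 and 41.7% with PBS. In FVIO-MHT replicate 3 a further 19.0% of its C1qa UMIs lay in the unnamed cluster, where 8.21% of its barcodes had a C1qa UMI.

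C3 in this class was at 203, 538 and 53.9 CPM in the FVIO-MHT libraries and at 429.6, 295 and 230.4 CPM in the PBS libraries. On the log2 scale C3 differed by -0.23 ± 0.66 (SE). Cfb was at 0, 194 and 76.3 CPM in the FVIO-MHT libraries, where 0 UMIs allow up to 86.9 CPM, and at 17.2, 103 and 144 CPM in the PBS libraries. Neither gene separated the groups.

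**Figure D4:**
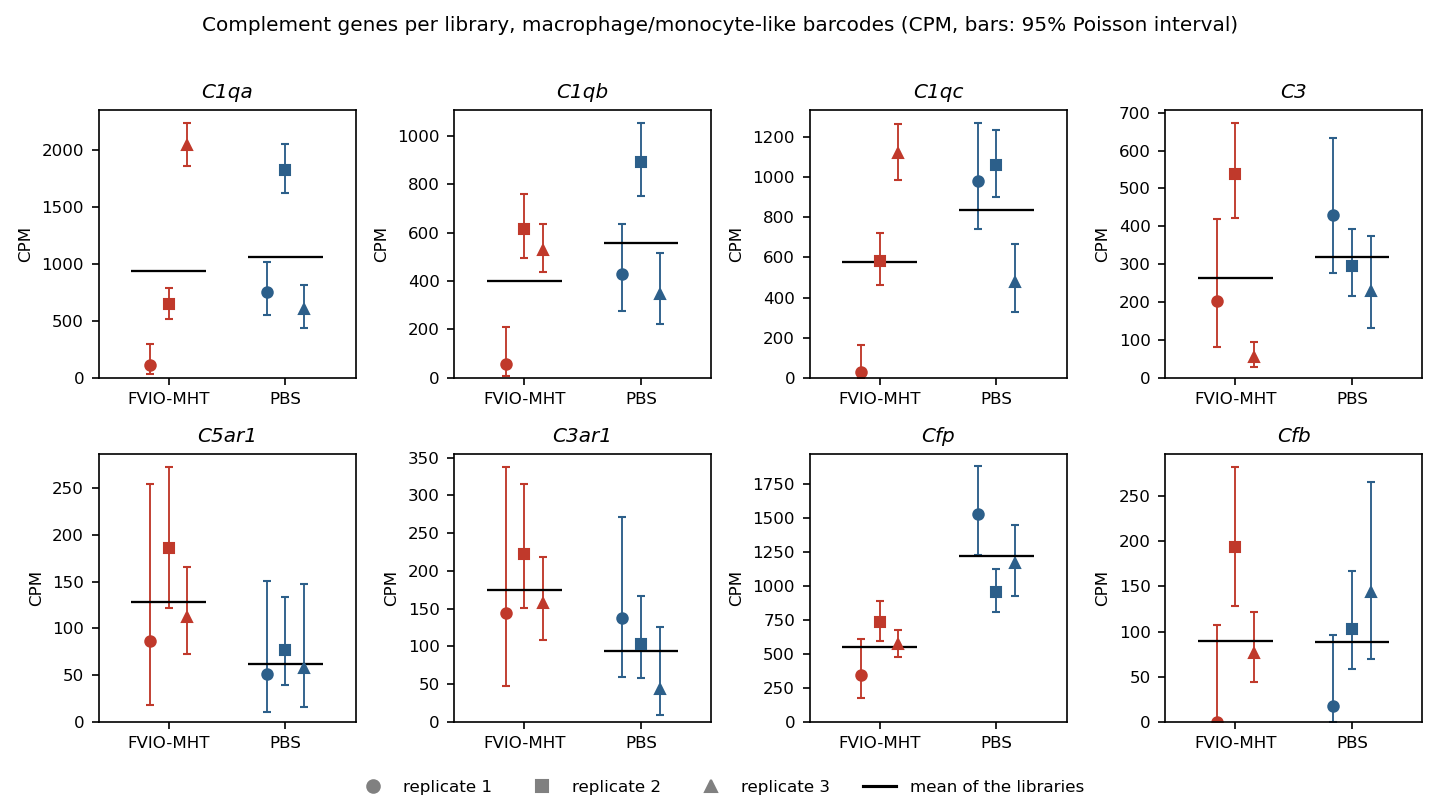
CPM of each gene per library within macrophage/monocyte-like barcodes; symbols mark the replicates, bars the 95% Poisson interval and lines the mean of 3 libraries. Cfp lies lower in all 3 FVIO-MHT libraries (347 to 731 CPM) than in the PBS libraries (956 to 1529 CPM), and the C1q panels overlap.

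In tumour epithelial-like barcodes the member with UMIs to compare was C3. FVIO-MHT replicate 1 had no such barcode, so 2 treated libraries met 3 PBS libraries. C3 was at 111 and 34.3 CPM in FVIO-MHT replicates 2 and 3. In the PBS libraries it was at 352, 241 and 349 CPM. The groups were well apart, with 72 and 656 UMIs; 9.32% of the genes tested lay wholly below in this way, and 5.18% were lower at an unadjusted p under 0.05. The means were 72.5 ± 54.1 (SD, n = 2) and 314 ± 63.0 CPM (SD, n = 3), a ratio of 0.231. On the log2 scale the difference was -2.27 ± 0.47 (SE; 95% interval -3.33 to -1.21), with an adjusted p of 0.338 in edgeR (unadjusted 7.88e-04, rank 12 of 7456). edgeR called 0 of 7456 genes (0%) and 681 (9.13%) had an unadjusted p under 0.05; DESeq2 called 30, C3 among them, with an adjusted p of 9.83e-04. Fibroblast markers within the class summed to 312 and 133 CPM against 131, 146 and 243 CPM and neutrophil markers to 871 and 213 CPM against 309.8, 169 and 489 CPM, overlapping between the groups.

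The C3 result was past the threshold under 5 of 14 alternatives: DESeq2, Leiden resolution 2 (adjusted p 0.0379), no filter on low counts (3.51e-05), the replicate number as a block (6.72e-04), and without FVIO-MHT replicate 2 (0.00252), where a lone treated library is assumed to vary like the others. Its log2 fold change kept its sign throughout, between -3.22 and -1.63. Under the block, PBS replicate 1 has no treated library of its number and adds nothing to the group difference. The class is made of 4 clusters that the libraries share unevenly, and 87.4% of its barcodes in FVIO-MHT replicate 3 were in cluster 8. Within cluster 9, which held 46 or more barcodes of each of the 5 libraries, C3 was at 66.7 and 110.1 CPM in FVIO-MHT replicates 2 and 3, from 7 and 4 UMIs, and at 356, 264 and 480.4 CPM in the PBS libraries. Within cluster 8 the groups overlapped, at 91.2 and 31.3 CPM against 73.4, 109 and 93.8 CPM, where the PBS values rest on 4, 23 and 3 UMIs.

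Cfp was at 10.1 and 14.7 CPM in tumour epithelial-like barcodes of FVIO-MHT replicates 2 and 3 and at 22.8, 19.4 and 29.8 CPM in the PBS libraries. Its log2 fold change was -0.90 ± 0.52 (SE), with an adjusted p of 0.627 in edgeR. Only 2.56% of these barcodes held a Cfp UMI, against 28.9% of macrophage/monocyte-like ones, and macrophage/monocyte markers summed to 22.8 to 227 CPM in the class, whose part in the Cfp level was not tested. The other 6 members did not pass the filter here.

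With the libraries summed, C3 was at 831 CPM and Cfb at 316 CPM in fibroblast-like barcodes, above the other classes, an order that did not hold in every library: in PBS replicate 2, Cfb was at 38.6 CPM in fibroblast-like and 103 CPM in macrophage/monocyte-like barcodes. The libraries did not fall by group: C3 was at 1163 and 181 CPM in FVIO-MHT replicates 2 and 3 and at 309 and 1638 CPM in PBS replicates 2 and 3. Cfb was at 227 and 226 CPM in FVIO-MHT replicates 2 and 3 and at 38.6 and 921 CPM in PBS replicates 2 and 3, and PBS replicate 2 held 1 UMI in 24 barcodes. The log2 fold changes were -0.54 ± 1.06 for C3 and -1.18 ± 1.04 for Cfb (SE), with adjusted p of 0.998 each in edgeR, which called 0 of 1138 genes (0%; 42, or 3.69%, at an unadjusted p under 0.05; DESeq2 called 3).

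Neutrophil-like barcodes reached 20 or more in 3 libraries, 2 treated and 1 PBS. C5ar1 was at 195 and 336 CPM in FVIO-MHT replicates 1 and 2 and at 109 CPM in PBS replicate 1, the last from 3 UMIs in 65 barcodes. The log2 fold change was 1.45 ± 1.06 (SE; 95% interval -0.85 to 3.74), with an adjusted p of 0.995 in edgeR. C3 was at 585 and 342 CPM against 290.4 CPM, and Cfp at 188 and 265 CPM against 181 CPM. All 3 members tested lay above the PBS library, as did 30.6% of the genes tested. edgeR called 0 of 2621 genes (0%), with 68 (2.59%) at an unadjusted p under 0.05; DESeq2 called 1. C1q was sparse in them, with 10, 7 and 5 UMIs of C1qa, C1qb and C1qc over 746 barcodes.

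**Figure D5:**
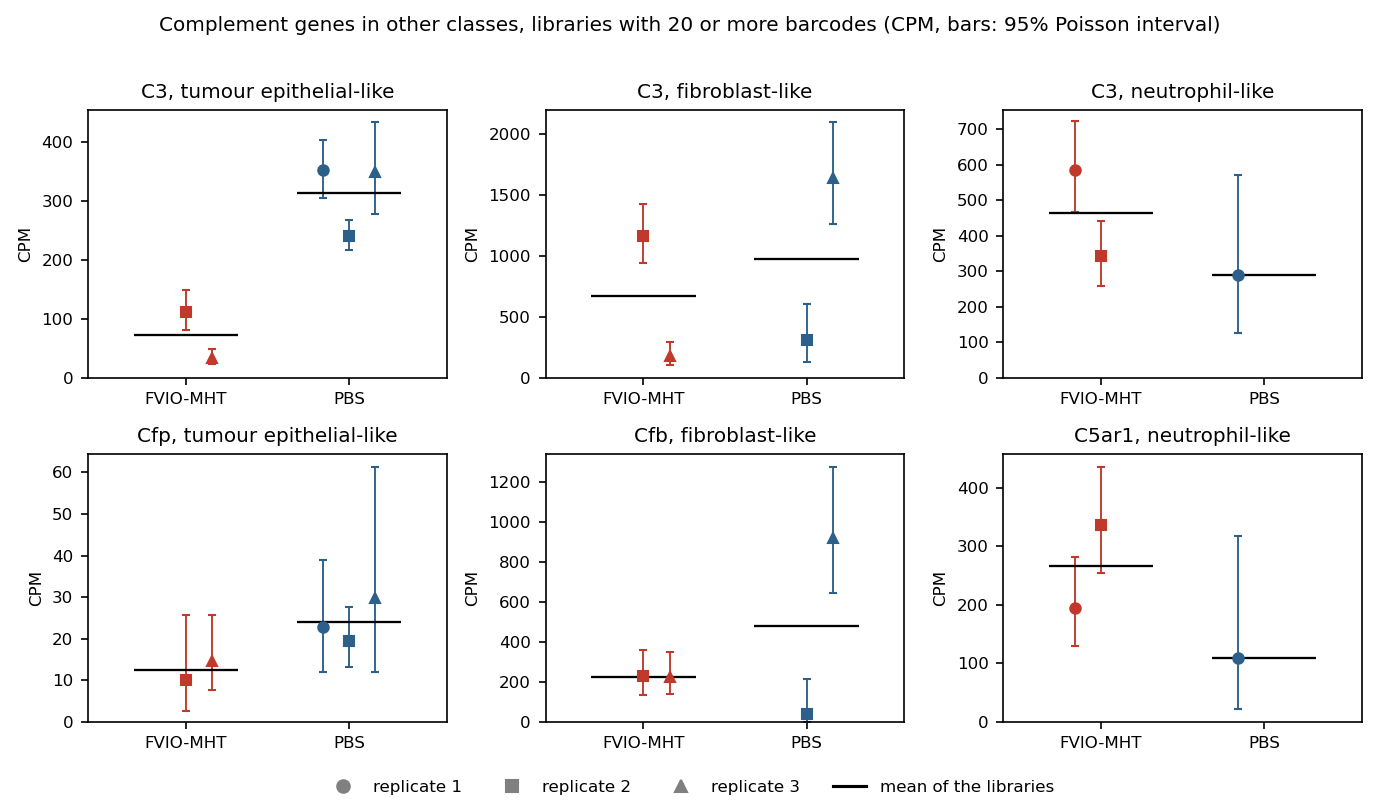
CPM per library of C3, Cfp, Cfb and C5ar1 in classes with 20 or more barcodes in that library; symbols mark the replicates, bars the 95% Poisson interval and lines the mean of the libraries shown. C3 in tumour epithelial-like barcodes is at 34.3 and 111 CPM with FVIO-MHT and at 241 to 352 CPM with PBS, while fibroblast-like values cross between groups.

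A wider list of 43 complement genes, from proteases and lectins to regulators and receptors, gave the setting; 42 were in the files. The 6 with the most UMIs were Clu, C1qbp, Lrp1, Itgam, C1ra and Cfd. Clu, a secreted chaperone that limits the terminal complex, had 73.0% of its UMIs in tumour epithelial-like barcodes, C1qbp 64.9% and Lrp1 50.1%, beside 59.1% of all UMIs in that class. Itgam, the alpha chain of complement receptor 3, had 58.7% in macrophage/monocyte-like and 31.6% in neutrophil-like barcodes. C1ra, a protease bound to C1q, had 38.7% of its UMIs in fibroblast-like barcodes, which held 3.98% of all UMIs, and 47.2% in tumour epithelial-like ones. Cfd, the protease that activates factor B, had 97.4% of its 494 UMIs in fibroblast-like barcodes, but 443 of the 494 came from 16 barcodes of FVIO-MHT replicate 2.

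Over all barcodes 13 of the 42 passed the filter, 9 with a positive log2 fold change and a median of 0.43. Of all 8603 genes tested 4045 were positive, with a median of -0.04. Unadjusted p was under 0.05 for 2 of the 13, both higher with FVIO-MHT (3.68% of all genes tested), and 0 were called by edgeR. Cd93, a receptor of endothelium and myeloid cells once described as a C1q receptor, was at 60.7, 63.3 and 67.5 CPM in the FVIO-MHT libraries and at 13.6, 9.69 and 21.2 CPM in the PBS libraries. The treated libraries sat close together and well above PBS, 4.30-fold by the means. Of all genes tested, 3.17% had every FVIO-MHT library above every PBS library. The log2 fold change was 2.36 ± 0.48 (SE), with an adjusted p of 0.878 in edgeR (unadjusted 9.62e-04) and of 0.00168 in DESeq2. Endothelial-like barcodes held 50.9% of its UMIs and macrophage/monocyte-like ones 28.3%, the libraries pooled, but FVIO-MHT replicate 1 had no endothelial-like barcode. Endothelial markers summed to 93.8, 316 and 579 CPM in the FVIO-MHT libraries and to 192, 216 and 261 CPM in the PBS libraries, which overlap, and their part in the Cd93 level was not tested. Itgam had a log2 fold change of 3.41 ± 1.14 (SE; adjusted p 0.878 in edgeR and 0.00815 in DESeq2), with 1308 CPM in FVIO-MHT replicate 1 and 54.4 to 211 CPM in the other 5 libraries; without that replicate the value was 0.97. Its partner Itgb2 had 1.91 ± 0.85 and Lrp1 0.63 ± 0.53 (SE).

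In macrophage/monocyte-like barcodes 4 of the 42 were tested, and all had a positive log2 fold change (median 0.48), as had 1049 of all 2110 genes tested. Lrp1, a scavenger receptor, had the lowest p, with a log2 fold change of 1.37 ± 0.56 (SE; adjusted p 0.980 in edgeR, unadjusted 0.0333, with 1.99% of all genes tested higher at an unadjusted p under 0.05); Itgam was at 0.79, C1qbp at 0.16 and Itgb2 at 0.16. In tumour epithelial-like barcodes 8 were tested, 2 of them positive, with a median of -0.35. Of all 7456 genes tested there 3807 were positive, with a median of 0.01. C1s2, a protease of the C1 complex, had a log2 fold change of -2.64 ± 1.13 (SE; adjusted p 0.534 in edgeR, unadjusted 0.0416), C4b one of -1.31 ± 0.86, Clu one of -0.52 ± 0.35 and C1qbp one of 0.76 ± 0.36. The near-identical pairs C1s1 and C1s2, and C4b and C4a, may share reads, which makes each uncertain. In neutrophil-like barcodes 5 were tested, with Itgb2 at 1.72 ± 1.13, Cr1l at -1.17 ± 1.19, Itgam at 0.55 ± 0.99 and Cd93 at -0.37 ± 1.83 (SE). In fibroblast-like barcodes 7 were tested, with Cfd at 1.99 ± 1.91, Colec12 at -0.51 ± 0.60, C1s1 at -0.64 ± 1.05 and C4b at 0.33 ± 1.14 (SE). None of these was called by edgeR.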

How the data were processed

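Barcodes of 6 Drop-seq libraries (3 FVIO-MHT, 3 PBS) were compared. Each deposited matrix gives raw UMI counts, not normalized, by gene and barcode. The submitters' processing notes name STAR 2.7.2b and mm10; how the authors counted, with which annotation and strand setting, and how they chose barcodes is not stated there. Each lists 27998 gene rows and 5000 barcodes, and 65 repeat rows with identical counts were dropped. Total counts were 706300, 1391802 and 2207534 UMIs in FVIO-MHT replicates 1 to 3 and 1381844, 2100443 and 678337 UMIs in PBS replicates 1 to 3, of which 25.7, 64.7, 79.1, 63.7, 88.4 and 69.4% lay in the 6730 kept barcodes (200 or more genes). Exact Poisson and Clopper-Pearson 95% intervals, and the floor of 3 counts, leave out all but counting error.

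scanpy 1.11.5 clustered log-scaled counts (2000 variable genes without complement genes, 30 components, 15 neighbours, Leiden resolution 1) into 18 clusters. A cluster was named from at least 3 markers, each in 5% or more of its barcodes at 2-fold or more over the median cluster, and from its 10 leading genes; 17 were named. The naming rule had 2 versions: the first called a cluster tumour epithelial only where no other class reached 3 markers. It was revised with the leading genes and barcode numbers known, and no group comparison yet made. Scrublet called 39 doublets (0.579%), which were kept.

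UMI counts were summed per library and class (20 or more barcodes) and tested in R 4.3.3 with edgeR 4.0.16 (quasi-likelihood, TMM, filterByExpr, Benjamini-Hochberg, adjusted p under 0.05); DESeq2 1.42.0 was an alternative. The standard error is the log2 fold change over the square root of F. The test was checked on simulated counts. Shares were also taken after thinning barcodes to 300 UMIs. Named are all 8 members and, of the wider list, the 4 with the lowest p in each comparison and the 6 with the most UMIs; for likeness, the 3 genes of highest r per member. The members and lists were chosen with earlier results of these data known. Gene positions came from GENCODE M21 (GRCm38, the build also called mm10). Other settings tried were the gene minimum, size factors, low-count filter, doublets, shared barcodes, clustering, replicate block and each library left out.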

Additional observations from a re-analysis of the deposited data

Results flagged for a closer look

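C5ar1 was flagged in barcodes with fewer than 200 genes, which the main comparisons leave out. The rule was that every FVIO-MHT library lies above every PBS library, so that separation is no added support. How many of all genes meet the rule there was not counted, and the barcodes come from the same 6 libraries. In them C5ar1 was at 182 ± 105 CPM in the FVIO-MHT libraries and at 42.9 ± 14.5 CPM in the PBS libraries (SD, n = 3 each), from 275 and 40 UMIs. By library the values were 240.0, 246 and 60.8 CPM against 41.9, 28.9 and 57.8 CPM, so FVIO-MHT replicate 3 and PBS replicate 3 nearly met. Kept barcodes held 19.7% of the C5ar1 UMIs of FVIO-MHT replicate 1, and 22.2% and 29.4% of those of PBS replicates 1 and 3.

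For 2 members the groups lay apart in opposite directions in different classes; none of these values was past the threshold in edgeR, and the differences between classes were not tested. C3 had a log2 fold change of 0.93 in neutrophil-like and -2.27 in tumour epithelial-like barcodes. Cfp had one of 0.50 in neutrophil-like barcodes, against -1.07 in macrophage/monocyte-like and -0.90 in tumour epithelial-like ones. The neutrophil-like values set 2 libraries against 1 PBS library with 65 barcodes, and 30.6% of the genes tested there lay above that library.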

How the results depend on the processing

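Of 559 alternative values of 42 single-gene results, 504 kept their direction and were not seen to change side of the threshold. Values with no adjusted p, such as C3ar1 over all barcodes in DESeq2, are counted among these. Another 45 values of 20 results turned sign, and 10 passed the threshold. C5ar1, C3ar1 and Cd93 over all barcodes, Cfp in macrophage/monocyte-like and C3 in tumour epithelial-like barcodes kept their sign in every alternative run. The cause of the changes was not tested, save that leaving out a library or filter changes what is tested. DESeq2 called 185 genes over all barcodes, 2 in macrophage/monocyte-like, 1 in neutrophil-like, 30 in tumour epithelial-like and 3 in fibroblast-like barcodes, where edgeR called 0 in each. With no filter on low counts edgeR called 2, 22, 1, 143 and 7. It called 4 in tumour epithelial-like barcodes at Leiden resolution 2, 1 in neutrophil-like barcodes with complement genes in the clustering, and in fibroblast-like barcodes 1 without shared barcodes and 7 at a minimum of 300 genes.

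Leaving out each library in turn gave 0 calls over all barcodes, 0 to 2 in macrophage/monocyte-like barcodes (2 without PBS replicate 1), 0 to 246 in tumour epithelial-like ones (246 without FVIO-MHT replicate 2, 13 without PBS replicate 1) and 0 to 22 in fibroblast-like ones (22 without FVIO-MHT replicate 3, 3 without FVIO-MHT replicate 2, 2 without PBS replicate 2). Over all barcodes the log2 fold changes then ranged from -0.31 to 1.23 for C1qa, -0.01 to 0.77 for C1qb, -0.23 to 0.72 for C1qc, -0.77 to 1.02 for C3, -0.01 to 0.90 for Cfp and -1.01 to 1.87 for Cfb. In macrophage/monocyte-like barcodes they ranged from -1.41 to 0.57 for C1qa, -0.69 to 0.17 for C1qb, -1.31 to 0.04 for C1qc, -1.54 to 0.33 for C3, -0.19 to 0.57 for Cfb, -0.05 to 1.25 for Itgam and -1.09 to 0.69 for Itgb2. In fibroblast-like barcodes they ranged from -2.66 to 1.17 for C3, -2.04 to 2.50 for Cfb, -8.31 to 3.62 for Cfd, -3.37 to 0.27 for C1s1 and -2.31 to 2.11 for C4b. C4b in tumour epithelial-like barcodes (-4.15, adjusted p 0.0220 in edgeR, without FVIO-MHT replicate 2) and Cfd in fibroblast-like ones (2.99, 0.0129, without FVIO-MHT replicate 3) passed the threshold once each. In such fits a group left with 1 library is assumed to vary like the others.

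Other values that turned sign were C3 over all barcodes, at -0.22 with a minimum of 400 genes and -0.39 without the neutrophil-like class, and Cfb, at 0.33 without doublets, 0.17 without shared barcodes and 0.24 without the neutrophil-like class. In macrophage/monocyte-like barcodes C1qa was 0.34, C1qc 0.02 and Itgam -0.06 at resolution 2, where FVIO-MHT replicate 1 had too few barcodes to enter, and Itgb2 was -0.13 at a minimum of 300 genes. Cd93 in neutrophil-like barcodes was 0.06 with no filter, and C4b in fibroblast-like ones -0.51 at a minimum of 300 genes.

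With the replicate number as a block, edgeR called 157 genes in tumour epithelial-like barcodes and 0 in the other comparisons it could be fitted in. In tumour epithelial-like barcodes PBS replicate 1 had no treated library of its number, so that fit rests on fewer libraries. Deviations of log2 CPM from the group mean correlated at 0.16, 0.02 and -0.08 between same-numbered libraries, and at -0.23 to 0.31 between others. Not every library correlated best with its own number. With 3 libraries per group these values cannot decide if the numbers pair the libraries, and the labels do not say so. Under the replicate block C3 (-0.16) and Cfb (0.15) over all barcodes, Cfb (-0.04), C1qbp (-0.21) and Itgb2 (-0.17) in macrophage/monocyte-like and Cfd (-0.67) and C4b (-0.16) in fibroblast-like barcodes turned sign. For neutrophil-like barcodes the block, leaving out a library and a minimum of 300 genes could not be run, because only 3 libraries reach 20 barcodes. Leaving out shared barcodes, the neutrophil-like class and the gene minimum were chosen after seeing the data. Depth limits C5ar1, C3ar1 and Cfb, with 179, 118 and 183 UMIs in all. Thinning moved 11 of 16 shares of barcodes beyond their interval.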
